A study of Mus musculus with 12 samples.

Results

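PU subregions are the stretches of mouse embryonic stem cell (ESC) super-enhancers that the study found without CpG methylation both in ESCs and in epiblast stem cells (EpiSCs), the later, primed pluripotent state. They were taken as all rows of type PU in the 4 deposited tables after these had been joined on position and type, which gave 183 of 671 subregions. The other 488 rows are DM subregions, which lack methylation in ESCs and carry it in EpiSCs. MED1, a subunit of Mediator, and histone H3 acetylated at lysine 27 (H3K27ac) were measured by chromatin immunoprecipitation and sequencing (ChIP-seq) in Esrrb-/- ESCs and in Esrrb fl/fl control ESCs, which still express *Esrrb* and which the labels call wild-type. Both populations were existing lines maintained on gelatin in serum with LIF, and how many independent clones each stands for is not given in the sources used here. The series holds 12 samples, 2 for each of 6 groups (MED1, H3K27ac and input, each in control and in Esrrb-/- cells), but each deposited table holds 1 value per subregion for an antibody and genotype. There is therefore no replicate error, no difference below was tested, and every value stands for pooled libraries. The loss of *Esrrb* cannot be checked in tables of chromatin signal. In bulk chromatin, a change in some of the cells and a smaller change in all of them cannot be told apart.

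Super-enhancers are dense clusters of enhancers bound by many transcription factors and by Mediator, the complex that bridges those factors to RNA polymerase II. H3K27ac marks active enhancers and promoters. ESRRB is an orphan nuclear receptor of the naive pluripotency network that binds the extended half-site AAGGTCA, which the related receptor NR5A2 also recognises. Mammalian promoters often lie in CpG islands, which are rich in G and C and stay unmethylated in most tissues, so a class of regions defined by lack of methylation can hold enhancers and promoters alike.

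Base composition is shown first because H3K27ac changes within the PU class followed it (below). The central 120 bases are given for 4 PU subregions at the low end of the H3K27ac log2 fold change and 4 at the high end, taken in order among those with at least 50 reads in each genotype whose central window avoids annotated exons, with at most 1 for each cluster of subregions. All are plus-strand mm9 sequence, named after the gene with the nearest protein-coding start, and capitals mark CG dinucleotides, the sites of methylation. At the low end were:
Nfkbia chr12:56606910-56607029: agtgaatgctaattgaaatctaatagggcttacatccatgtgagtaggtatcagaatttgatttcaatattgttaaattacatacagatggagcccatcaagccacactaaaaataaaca
Ccdc160 chrX:50106439-50106558: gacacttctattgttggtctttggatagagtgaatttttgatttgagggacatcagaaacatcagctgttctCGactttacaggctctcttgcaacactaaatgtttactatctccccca
Sox2 chr3:34545737-34545856: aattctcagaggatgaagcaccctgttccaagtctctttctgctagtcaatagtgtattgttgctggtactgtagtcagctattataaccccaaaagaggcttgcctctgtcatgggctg
Otx2 chr14:49274653-49274772: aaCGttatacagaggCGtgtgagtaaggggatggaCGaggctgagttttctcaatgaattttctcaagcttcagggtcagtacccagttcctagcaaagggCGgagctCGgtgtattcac
At the high end were:
Epb4.9 chr14:71029089-71029208: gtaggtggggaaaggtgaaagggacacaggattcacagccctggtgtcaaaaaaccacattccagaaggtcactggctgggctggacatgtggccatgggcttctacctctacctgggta
Ddit4 chr10:59420919-59421038: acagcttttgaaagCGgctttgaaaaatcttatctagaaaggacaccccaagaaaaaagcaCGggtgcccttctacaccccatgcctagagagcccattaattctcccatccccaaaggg
5830454E08Rik chr9:120599634-120599753: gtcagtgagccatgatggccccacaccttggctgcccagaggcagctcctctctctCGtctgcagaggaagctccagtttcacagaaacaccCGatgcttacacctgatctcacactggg
Chd9 chr8:93352521-93352640: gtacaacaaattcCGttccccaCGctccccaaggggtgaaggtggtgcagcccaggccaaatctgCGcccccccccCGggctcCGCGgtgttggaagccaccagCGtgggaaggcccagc
The windows at *Nfkbia* and *Sox2* hold 0 CG dinucleotides and that at *Ccdc160* holds 1, whereas the window at *Otx2* holds 5. At the high end, the window at *Chd9* holds 7, those at *Ddit4* and *5830454E08Rik* hold 2 each and that at *Epb4.9* holds 0. The GC content of these windows ran from 32.5% at *Nfkbia* to 67.5% at *Chd9*. The ends overlapped, with 49.2% in the low-end window at *Otx2* and 47.5% in the high-end window at *Ddit4*.

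PU subregions were between 167 and 6610 bp long, with a median of 886 bp against 915 bp for all 671. They lay in 129 of the 218 blocks that form when rows no more than 20000 bp apart are joined, a working stand-in for single super-enhancers, and 107 of these 129 blocks also held DM subregions. A protein-coding transcript start (GENCODE vM1) fell inside 41 PU subregions, and a start was inside or within 2500 bp of 64, which is 35.0% of PU against 16.6% of DM and 21.6% of all rows. By overlap with protein-coding genes, 46 touched an exon, 37 lay in introns only and 100 were intergenic. CpG dinucleotides were denser, at a median of 2.33 per 100 bp against 1.64 for all rows, and GC content was 52.8% against 49.6%. The usual CpG island rule (GC of at least 50%, an observed to expected CpG ratio of at least 0.6 and a length of at least 200 bp) was met by 33 PU and by 2 DM subregions. Lack of methylation in both cell states was the criterion that made the class, so its CpG density is a description of the class.

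In control ESCs the median PU subregion had a MED1 level of 679 RPKM (reads per kilobase of subregion, scaled by a read total) and an H3K27ac level of 506 RPKM, against 586 and 520 RPKM over all rows. In Esrrb-/- ESCs the medians were 620 RPKM for MED1 and 714 RPKM for H3K27ac, against 499 and 568 RPKM over all rows. MED1 was spread wider than H3K27ac in control cells: the 90th percentile of PU subregions was 7.03 times the 10th for MED1 and 3.02 times for H3K27ac. In Esrrb-/- cells these ratios were 5.03 and 7.66. The 10th to 90th percentile range of H3K27ac was 239 to 721 RPKM in control and 225 to 1723 RPKM in Esrrb-/- cells, and the same ratio over all rows went from 2.81 to 6.51.

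**Figure D1:**
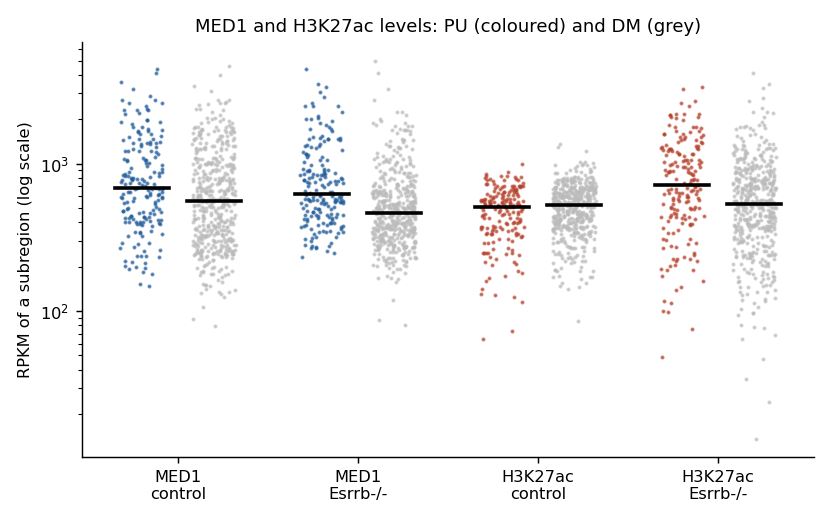
Level of each subregion in RPKM (vertical axis, log scale) for MED1 and H3K27ac in control and Esrrb-/- ESCs, with 183 PU subregions in colour, 488 DM subregions in grey and black bars at the medians. The PU medians in control and Esrrb-/- cells were 679 and 620 RPKM for MED1 and 506 and 714 RPKM for H3K27ac, and the spread of H3K27ac is wider in Esrrb-/- cells.

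PU subregions ranked alike in MED1 in both genotypes, with a Spearman correlation of 0.74 (Pearson 0.83) across the 183, which share their libraries. Between the marks the correlation was weaker, at 0.44 in control (Pearson 0.24) and 0.33 in Esrrb-/- cells (Pearson 0.19). The highest control MED1 stood at a 196 bp subregion nearest to *Sox2* (chr3:34656742-34656937, intergenic, 107684 bp from its start), with 4393 RPKM in control and 2447 RPKM in Esrrb-/- cells. It was followed by a pair on chromosome 7 nearest to *Nlrp12* (4110 and 4412 RPKM) and *AU018091* (3548 and 3332 RPKM), one nearest to *Stoml1* (3185 and 3468 RPKM) and one nearest to *Frmd8* (2853 and 2465 RPKM). All 5 lay outside protein-coding genes and at least 25884 bp from a protein-coding start. The pair on chromosome 7 is nearest of all annotated genes to *Mir290*, of the microRNA cluster that is abundant in ESCs, whose start is 452 bp from the first and 11352 bp from the second. The 5 with the highest control H3K27ac were of another kind, since 3 held the starts of *Mybl2*, *Mcl1* and *Vdac1* and the other 2 lay within 2500 bp of the starts of *Lrrc2* and *Sulf2*. Their control H3K27ac ran from 825 to 997 RPKM and their Esrrb-/- level from 1459 to 2564 RPKM.

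For each subregion the change is given below as log2((Esrrb-/- + 1)/(control + 1)) of the RPKM. Each deposited value equals a whole number of reads, which gives an exact 95% interval of the change for counting error only. The reads behind PU values ran from 19 to 3908 for MED1 in control (median 310) and from 15 to 1836 in Esrrb-/- cells (median 132). For H3K27ac they ran from 43 to 5974 (median 586) and from 24 to 13558 (median 777). The read total behind the deposited values cannot be that of whole libraries, since the 671 subregions alone hold 68.7% and 56.7% of it for MED1 and 44.3% and 61.7% for H3K27ac in control and Esrrb-/- cells. Levels are therefore relative to a total of which these subregions make up between 44.3% and 68.7%, depending on mark and genotype. A difference shared by most of the regions counted in that total would not show in the deposited values. In the smallest whole numbers that fit, the 183 PU subregions held 83878 MED1 reads in control and 43735 in Esrrb-/- cells, and 161983 and 270517 H3K27ac reads, and library depths were not used here to scale them. The deposited scale matters for direction: setting both genotypes to the same sum of reads over all 671 rows would add 0.28 to every MED1 log2 fold change and take 0.48 from every H3K27ac one, which turns the sign at 35 and 47 PU subregions. Differences between PU subregions of 1 mark do not depend on this choice.

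On the deposited scale MED1 values were higher at some PU subregions and lower at others, with a median near no difference. Its median log2 fold change was -0.03, with the middle of the distribution between -0.41 and 0.33 and extremes of -1.70 and 2.24. MED1 was lower in Esrrb-/- cells at 97 of 183 PU subregions (53.0%, against 58.0% of all rows), lower by at least 1.5 times at 30 (16.4%, against 26.8%) and higher by at least 1.5 times at 25 (13.7%, against 14.8%). The counting interval lay below 0 at 63 (34.4%, against 39.5%) and above 0 at 45 (24.6%, against 20.6%). With both genotypes set to the same sum of reads over all rows, MED1 was lower at 62 (33.9%) and higher at 121 (66.1%). The median was then 0.24 for PU and 0.14 for all rows. Neither scale would show a loss shared by most of the regions counted. PU subregions held 83878 MED1 reads in control and 43735 in Esrrb-/- cells. A scale by library depth, which was not used here, could move MED1 values downward. The paper reported a strong genome-wide loss of MED1, with PU subregions retaining it.

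On the deposited scale H3K27ac was higher in Esrrb-/- cells at most PU subregions. Its median log2 fold change was 0.66, with the middle of the distribution between 0.20 and 1.13 and extremes of -1.42 and 3.26. It was higher at 151 of 183 (82.5%, against 64.7% of all rows), higher by at least 1.5 times at 100 (54.6%, against 30.6%) and lower by at least 1.5 times at 13 (7.10%, against 15.1%). The counting interval lay above 0 at 133 (72.7%, against 53.4%) and below 0 at 20 (10.9%, against 26.4%). On the common sum of reads it was higher at 104 (56.8%) and lower at 79 (43.2%), with a median of 0.19 for PU and -0.24 for all rows.

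The marks did not move in step. MED1 was lower and H3K27ac higher at 76 PU subregions, both were higher at 75, both were lower at 21, and MED1 was higher with H3K27ac lower at 11. Over all rows these shares were 32.6%, 32.0%, 25.3% and 9.99%, against 41.5%, 41.0%, 11.5% and 6.01% in PU. With counting intervals clear of 0 for both marks, 45 PU subregions had less MED1 with more H3K27ac, 38 had more of both, 9 had less of both and 1 had more MED1 with less H3K27ac. These are 24.6%, 20.8%, 4.92% and 0.546% of PU, against 18.3%, 14.8%, 14.9% and 1.64% of all rows. The Spearman correlation of the log2 fold changes was 0.20 (Pearson 0.28) across 183 PU and 0.32 (Pearson 0.32) across 488 DM subregions. Without the 4 PU subregions at *Epb4.9*, described below, it was 0.14 (Pearson 0.16).

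**Figure D2:**
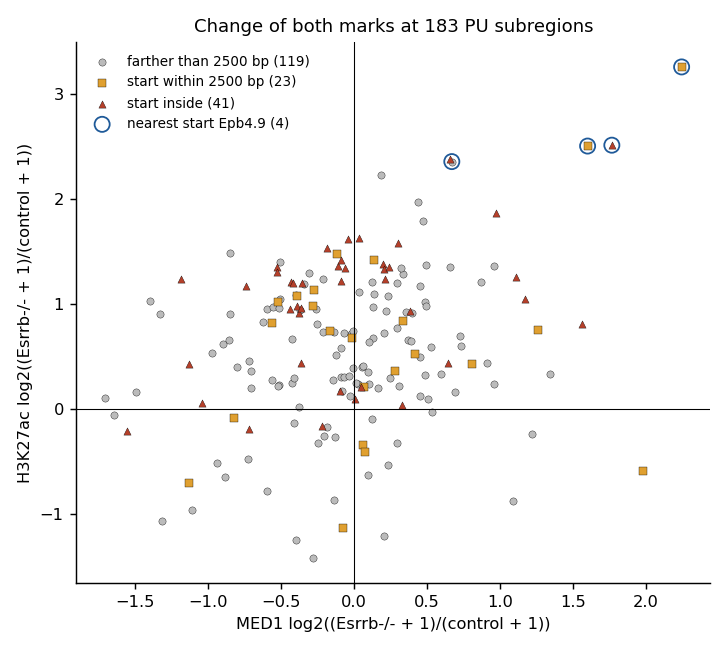
Log2 fold change of H3K27ac (vertical axis) against that of MED1 (horizontal axis), Esrrb-/- over control, for 183 PU subregions, with symbols for the distance to the nearest protein-coding start and rings around the 4 subregions at *Epb4.9*. Most points lie above 0 for H3K27ac and on both sides of 0 for MED1, and 3 of 41 with a start inside lie below 0 for H3K27ac against 23 of 119 farther away.

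H3K27ac changes differed with nearness to promoters, and MED1 medians were close over all lengths together but not within length classes. The 41 PU subregions that hold a start had a median H3K27ac log2 fold change of 1.20, the 23 with a start within 2500 bp had 0.74 and the 119 farther away had 0.50. H3K27ac was higher in Esrrb-/- cells at 38 of the 41, at 17 of the 23 and at 96 of the 119. The median levels of the 41 were 563 RPKM in control and 1213 RPKM in Esrrb-/- cells, against 458 and 622 RPKM for the 119. Median MED1 log2 fold changes in the same order were -0.09, 0.07 and -0.02. The 33 subregions that met the CpG island rule had medians of 1.22 for H3K27ac and -0.18 for MED1, against 0.48 and 0.0018 for the other 150.

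Length gave a similar order for H3K27ac. The 61 shortest PU subregions had a median H3K27ac log2 fold change of 0.33, the middle 61 had 0.51 and the 61 longest had 0.98, whereas the MED1 medians were 0.03, -0.13 and -0.01. The H3K27ac difference between longest and shortest, 0.65, was 0.26 among the 143 subregions with a mean level at or above the 25th percentile of all rows. Length and promoters overlapped, since 38 of the 61 longest but 10 of the 61 shortest were inside or within 2500 bp of a start. Among the 61 longest, the 38 near a start had a median H3K27ac log2 fold change of 1.24 and the 23 others 0.65. Among the middle 61 the order was the other way round, at 0.43 for the 16 near a start and 0.59 for the 45 others. For MED1 the 10 short subregions near a start stood out with a median of 0.80, against 0.01 for the 51 short ones farther away, with 7 of the 10 above 0. The longest of all, which covers *Sox2* over 6610 bp, had 1392 and 1031 RPKM of MED1 and 528 and 1025 RPKM of H3K27ac in control and Esrrb-/- cells.

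**Figure D3:**
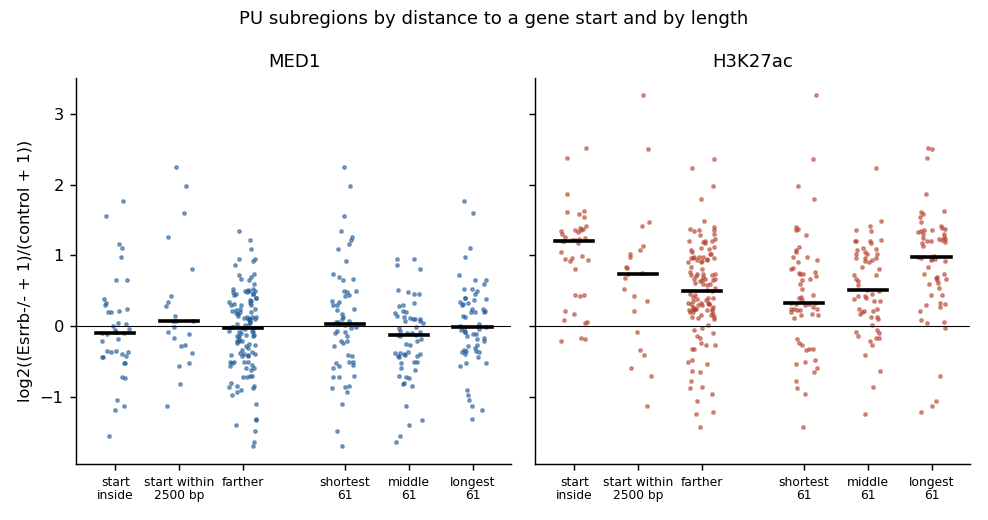
Log2 fold change, Esrrb-/- over control, of MED1 (left) and H3K27ac (right) at PU subregions grouped by distance to a protein-coding start and by length, with a point for each subregion and black bars at the medians. H3K27ac medians step from 1.20 to 0.74 to 0.50 away from starts and from 0.33 to 0.51 to 0.98 with length, while MED1 medians stay between -0.13 and 0.07.

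GC content was more closely related to the H3K27ac change than length or distance to a start was. Across the 183 PU subregions the Spearman correlation of GC content with the H3K27ac log2 fold change was 0.63 (Pearson 0.57), against 0.29 (Pearson 0.21) for length and -0.25 (Pearson -0.13) for distance to a start. GC content and length were themselves weakly related, at 0.13 (Pearson 0.091). The correlation of GC content with the MED1 log2 fold change was -0.12 (Pearson -0.12). The MED1 change was more closely related to the control MED1 level, at -0.55 (Pearson -0.38) in PU and -0.65 (Pearson -0.50) in DM. The control level is part of the log2 fold change, so a negative relation arises in part by construction. The 61 PU subregions of lowest GC content had a median H3K27ac log2 fold change of 0.24, the middle 61 had 0.60 and the 61 of highest GC content had 1.20, with 40, 52 and 59 above 0. In control cells the H3K27ac levels of these classes were 369, 508 and 563 RPKM and in Esrrb-/- cells 419, 664 and 1253 RPKM. By density of CpG dinucleotides, the same split gave H3K27ac medians of 0.31, 0.64 and 1.08 and MED1 medians of 0.06, -0.01 and -0.18. The relation with GC content was present away from promoters, with a Spearman correlation of 0.57 (Pearson 0.58) over the 119 farther subregions, and near them, with 0.52 (Pearson 0.48) over 64. Within the 61 of highest GC content, the 37 near a start had a median of 1.24 and the 24 others 1.02. DM subregions showed it too, at 0.41 (Pearson 0.37). The input libraries were not used here, and the part of GC content in these differences was not tested.

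**Figure D4:**
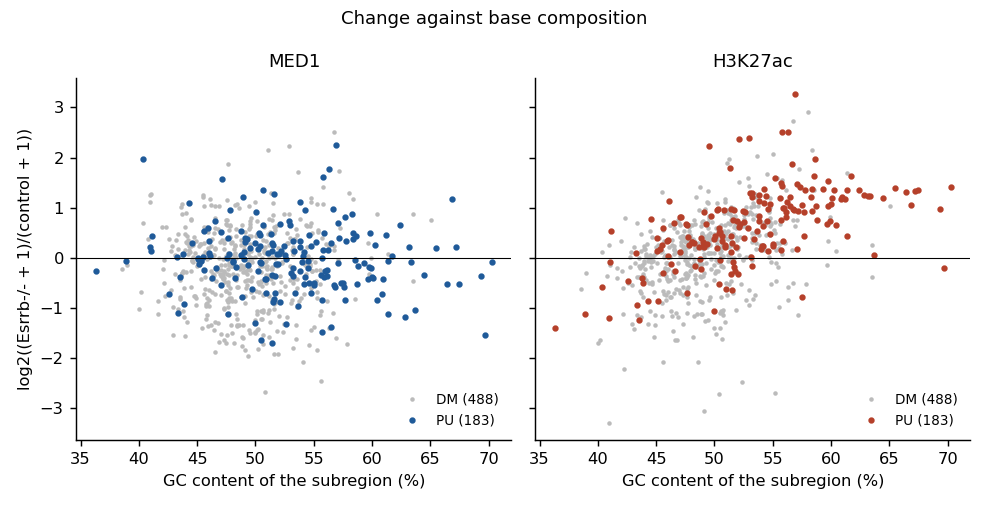
Log2 fold change, Esrrb-/- over control, of MED1 (left) and H3K27ac (right) against GC content in percent for 183 PU subregions (coloured) and 488 DM subregions (grey). H3K27ac values are higher at higher GC content (Spearman correlation 0.63 in PU and 0.41 in DM) and MED1 values are not (-0.12 and -0.02).

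Set beside DM subregions of the same GC class, PU subregions differed less from them in H3K27ac in the 4 lower of 5 classes but not in the highest. Over all rows the PU median was 0.54 above the DM median. When the 671 rows were divided into 5 classes of equal size by GC content, the difference was 0.11, 0.25, 0.27, 0.15 and 0.55 from the lowest to the highest class, which hold 25, 15, 27, 43 and 73 PU subregions. In the highest class the PU and DM medians were 1.10 and 0.55. This class has no upper bound, and GC content was not matched within classes, so PU and DM subregions there need not be alike in composition. For MED1 the PU median was 0.14 above the DM median over all rows and 0.06, 0.19, 0.42, 0.22 and -0.14 above it in the same classes.

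The mean PU and mean DM changes of a block correlated more closely in MED1 than in H3K27ac, and likeness among PU neighbours could not be ranked. In the 41 blocks with more than 1 PU subregion, 95 subregions in all, the median within-block SD of the log2 fold change was 0.23 for MED1, against an SD of 0.66 over all PU subregions, and 0.42 for H3K27ac, against 0.76. The median SD of so few values per block lies below the overall SD for unrelated rows too. The gap between them is therefore no measure of likeness by itself, least of all for H3K27ac, where it is narrower. All PU subregions of a block had the same sign in 27 of the 41 blocks for MED1 and in 28 for H3K27ac. These counts cannot be compared directly. H3K27ac was higher at 82.5% of PU, so that unrelated rows would often share its sign, whereas MED1 was lower at 53.0%. In the 107 mixed blocks the mean PU and mean DM log2 fold changes correlated at 0.64 for MED1 (Spearman, Pearson 0.65) and 0.34 for H3K27ac (Pearson 0.37). The 153 PU subregions that share a block with DM subregions had median log2 fold changes of -0.06 for MED1 and 0.73 for H3K27ac, and the 30 in blocks of PU only had -0.02 and 0.38.

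Within a few blocks H3K27ac differences went opposite ways by position. The widest span was at *Tsc22d1*, a leucine zipper regulator induced by TGF-beta. Over its start (chr14:76903681-76906072) H3K27ac went from 506 to 2640 RPKM, a log2 fold change of 2.38, and MED1 from 935 to 1477 RPKM. The 419 bp subregion beside it in an intron (chr14:76902762-76903180) had 73.6 and 48.5 RPKM of H3K27ac, a log2 fold change of -0.59 whose counting interval held 0 (-1.39 to 0.15). In MED1 the same small subregion had 191 and 758 RPKM, or 1.98 on the log2 scale (counting interval 1.38 to 2.62), from 34 and 73 reads, and it is named after its values were seen. At *Nfkbia*, which encodes the NF-kappa-B inhibitor I-kappa-B-alpha, the 1376 bp subregion over the start (chr12:56592740-56594115, exon) had 444 RPKM of H3K27ac in control and 1135 RPKM in Esrrb-/- cells, a log2 fold change of 1.35. The 289 bp subregion at the other end of the block (chr12:56606826-56607114, intergenic, 13192 bp from the start) had 519 and 194 RPKM, which gives -1.42 on the log2 scale (counting interval -1.85 to -1.02), the lowest H3K27ac value of the PU class. Its GC content was 36.3% and that of the subregion over the start 67.4%. At *Sox2* the subregion over the gene had an H3K27ac log2 fold change of 0.95 and a 1456 bp neighbour (chr3:34545069-34546524, intergenic, 2403 bp from the start) had 167 and 75.5 RPKM, a log2 fold change of -1.13, at GC contents of 50.8% and 38.9%. MED1 log2 fold changes at this pair were -0.43 and -0.08.

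The largest log2 fold changes of both marks lay together at *Epb4.9*, which encodes the actin-binding protein dematin. Its 4 PU subregions, within chr14:71022970-71035667, all had more MED1 and more H3K27ac in Esrrb-/- cells. The subregion in an intron at chr14:71028860-71029437 went from 233 to 1105 RPKM of MED1 and from 331 to 3187 RPKM of H3K27ac, log2 fold changes of 2.24 (counting interval 1.80 to 2.72) and 3.26 (3.08 to 3.46). The one over an *Epb4.9* start (chr14:71026510-71027869) went from 267 to 910 RPKM and from 378 to 2166 RPKM, and the one at chr14:71034170-71035667, which touches an exon, from 1005 to 3049 RPKM and from 580 to 3302 RPKM. The fourth (chr14:71022970-71023326, intron) changed least in MED1, from 1216 to 1938 RPKM, with H3K27ac going from 386 to 1986 RPKM. These 4 stood among the 5 highest H3K27ac log2 fold changes of the PU class.

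Other subregions near the top for H3K27ac had smaller MED1 differences. At the start of *Tsc22d1* the log2 fold changes were 2.38 for H3K27ac and 0.66 for MED1. At *Ddit4*, a stress-induced inhibitor of mTORC1 signalling, 3 intergenic PU subregions had H3K27ac log2 fold changes of 1.36, 1.98 and 2.24 from control levels of 64.8 to 206 RPKM. MED1 at these 3 was higher by 0.19 to 0.96 on the log2 scale, with a counting interval clear of 0 at 1. At the starts of *Vdac1*, a mitochondrial outer membrane channel, *Chd9*, a chromatin remodeller, and *Mcl1*, an anti-apoptotic BCL2 relative, H3K27ac log2 fold changes were 1.64, 1.62 and 1.54 while those of MED1 were 0.04, -0.04 and -0.18.

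Among PU subregions with at least 50 reads in each genotype (153 for MED1), the lowest MED1 log2 fold changes were -1.64 nearest to *Gm1631*, -1.55 at the start of *Cobl*, -1.39 nearest to *Fam53a*, -1.32 nearest to *Derl3* and -1.32 nearest to *Otx2*. At *Gm1631* (chr2:71582436-71583611, intergenic) MED1 went from 879 to 281 RPKM while H3K27ac was 692 and 664 RPKM. Near *Fam53a* (chr5:33877149-33878310, intergenic) MED1 went from 1581 to 602 RPKM and H3K27ac from 812 to 1655 RPKM, and near *Derl3* (chr10:75344642-75345517, intergenic) from 1380 to 550 RPKM and from 501 to 944 RPKM. At the start of the cell-cycle transcription factor *Mybl2* MED1 went from 1357 to 597 RPKM and H3K27ac from 872 to 2066 RPKM. Of these 6, *Otx2* and *Cobl* had both counting intervals below 0, and at *Cobl* H3K27ac was 778 and 675 RPKM (log2 fold change -0.21, counting interval -0.35 to -0.06). A single lower MED1 value, -1.70 nearest to *Sec14l1*, rested on 30 reads in Esrrb-/- cells and is named after its value was seen.

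The gene lists by role hold 72 genes, of which 26 were nearest to 41 PU subregions. MED1 was lower at 30 of the 41 (73.2%, against 53.0% of PU and 58.0% of all rows) and H3K27ac higher at 30 (73.2%, against 82.5% of PU and 64.7% of all rows), with median log2 fold changes of -0.28 and 0.72. The counting interval lay below 0 for MED1 at 19 and above 0 at 7, and for H3K27ac above 0 at 29 and below 0 at 7. In the same order the shares of PU were 34.4%, 24.6%, 72.7% and 10.9%. Those of all rows were 39.5%, 20.6%, 53.4% and 26.4%. With reads set to the common sum, MED1 was lower at 21 and higher at 20 and H3K27ac was higher at 24 and lower at 17, so the counts below are given on both scales. Shares of single lists are to be set against the same shares of PU and of all rows. On the common sum, MED1 was lower at 33.9% of PU and H3K27ac higher at 56.8%. The shares of all rows on that scale are not given here.

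Core pluripotency factors had 12 PU subregions, with MED1 lower at 8 (6 on the common sum) and H3K27ac higher at 8 (6 on the common sum). Each 8 is 66.7% of the list, above the 58.0% of all rows for MED1 and near their 64.7% for H3K27ac, where PU as a whole had 82.5%. On the deposited scale, *Sall4*, a zinc finger factor, and *Pou5f1*, which encodes OCT4, were on the higher side for both marks. Their weaker subregions were near no difference in MED1. The MED1 and H3K27ac log2 fold changes were 0.01 and 0.25 at *Pou5f1*. At *Sall4* they were 0.23 (counting interval -0.35 to 0.80) and 1.08. The *Sall4* subregion over the start (chr2:168589784-168593319) had 853 and 1054 RPKM of MED1 and 709 and 2121 RPKM of H3K27ac in control and Esrrb-/- cells, and the longer of the *Pou5f1* pair (chr17:35640614-35642407) had 1212 and 1529 RPKM and 731 and 1307 RPKM. At *Nanog* the subregion over the start (chr6:122657045-122657601) had 1511 and 921 RPKM of MED1 and 480 and 422 RPKM of H3K27ac, and the upstream one had 1625 and 1495 RPKM and 517 and 737 RPKM. At *Utf1*, a chromatin-associated factor of undifferentiated cells, MED1 log2 fold changes were -0.82 and -0.51 with H3K27ac at -0.08 and 0.23. At *Otx2*, a factor of primed pluripotency and the anterior epiblast, MED1 went from 795 to 319 RPKM and H3K27ac from 559 to 267 RPKM (chr14:49273400-49276025, intergenic).

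The list of KLF and naive factors had 3 PU subregions, nearest to *Fgf4*, *Klf13* and *Klf9*. All 3 had less MED1 on both scales and more H3K27ac on the deposited scale (2 on the common sum). On the deposited scale MED1 was lower at 53.0% of PU and 58.0% of all rows. H3K27ac was higher at 82.5% of PU and 64.7% of all rows, so 3 subregions are too few to stand apart. At *Fgf4*, an autocrine FGF ligand of ESCs, MED1 was 642 and 311 RPKM and H3K27ac 536 and 557 RPKM. Near *Klf13* MED1 was 1318 and 896 RPKM and H3K27ac 524 and 1028 RPKM, and near *Klf9* the values were 1771 and 1348 RPKM and 617 and 1312 RPKM. Most genes of this list had no PU subregion nearest to them, *Esrrb*, *Klf2*, *Klf4*, *Klf5* and *Tfcp2l1* among them.

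The Nodal, BMP and TGF-beta list had 9 PU subregions, of which 8 had more H3K27ac (7 on the common sum) and 4 had more MED1 (6 on the common sum). The H3K27ac share of 88.9% is close to the 82.5% of PU, and less MED1 at 55.6% to the 53.0% of PU. *Id1*, an inhibitor of basic helix-loop-helix factors and a BMP target, had more of both marks over its start, with MED1 at 392 and 847 RPKM and H3K27ac at 248 and 595 RPKM (chr2:152561738-152563618). *Lefty1*, a secreted Nodal antagonist, had 588 and 1412 RPKM of MED1 at the subregion 875 bp from its start and 1666 and 1830 RPKM at the other. At *Lefty2* and *Tdgf1*, the Nodal co-receptor Cripto, MED1 log2 fold changes were -0.06 and -0.01, with counting intervals that held 0, while H3K27ac log2 fold changes were 0.72 and 0.68. The inhibitory SMAD *Smad7* had MED1 log2 fold changes of -0.41 and -0.52 with H3K27ac at -0.14 and 1.30.

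*Spry2*, an inhibitor of receptor tyrosine kinase signalling, had MED1 log2 fold changes of -0.41 and -0.12 and H3K27ac at 0.29 and 1.48. *Socs3*, the feedback inhibitor of LIF and STAT3 signalling, had -0.51 and 1.05. On the common sum, MED1 was lower at 1 *Spry2* subregion and H3K27ac higher at the other, and the signs at *Socs3* were the same. The 8 PU subregions of the MYC and growth list had more H3K27ac at 4 and less at 4 on both scales. On the deposited one 82.5% of PU and 64.7% of all rows had more. Of the 8, 4 lay in 1 block at *Nfkbia*, with H3K27ac log2 fold changes of 1.35, -0.65, -0.32 and -1.42. At the start of *Mycn* both marks were higher, with MED1 at 392 and 772 RPKM and H3K27ac at 331 and 1213 RPKM, whereas 104552 bp from *Myc* the log2 fold changes were -0.13 and -0.26. *Ccnd3*, a D-type cyclin, had MED1 and H3K27ac log2 fold changes of -0.50 and 1.40 and the kinase gene *Pim1* had 0.32 and 1.35.

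Chromatin and Mediator genes had 6 PU subregions, all with less MED1 on the deposited scale (3 on the common sum) and 4 with more H3K27ac (3 on the common sum). The latter, 66.7%, is close to the 64.7% of all rows and below the 82.5% of PU. MED1 was lower at 53.0% of PU and 58.0% of all rows on the deposited scale. The 3 intronic ones at *Tet1*, which oxidises 5-methylcytosine, had MED1 log2 fold changes of -0.94, -0.34 and -0.08 and H3K27ac at -0.51, 1.19 and 0.17. Near *Smarcad1*, a chromatin remodeller, MED1 was 2451 and 1485 RPKM and H3K27ac 426 and 306 RPKM. Near *Med13l*, a subunit of the Mediator kinase module, MED1 was 825 and 749 RPKM and H3K27ac 635 and 1060 RPKM.

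**Figure D5:**
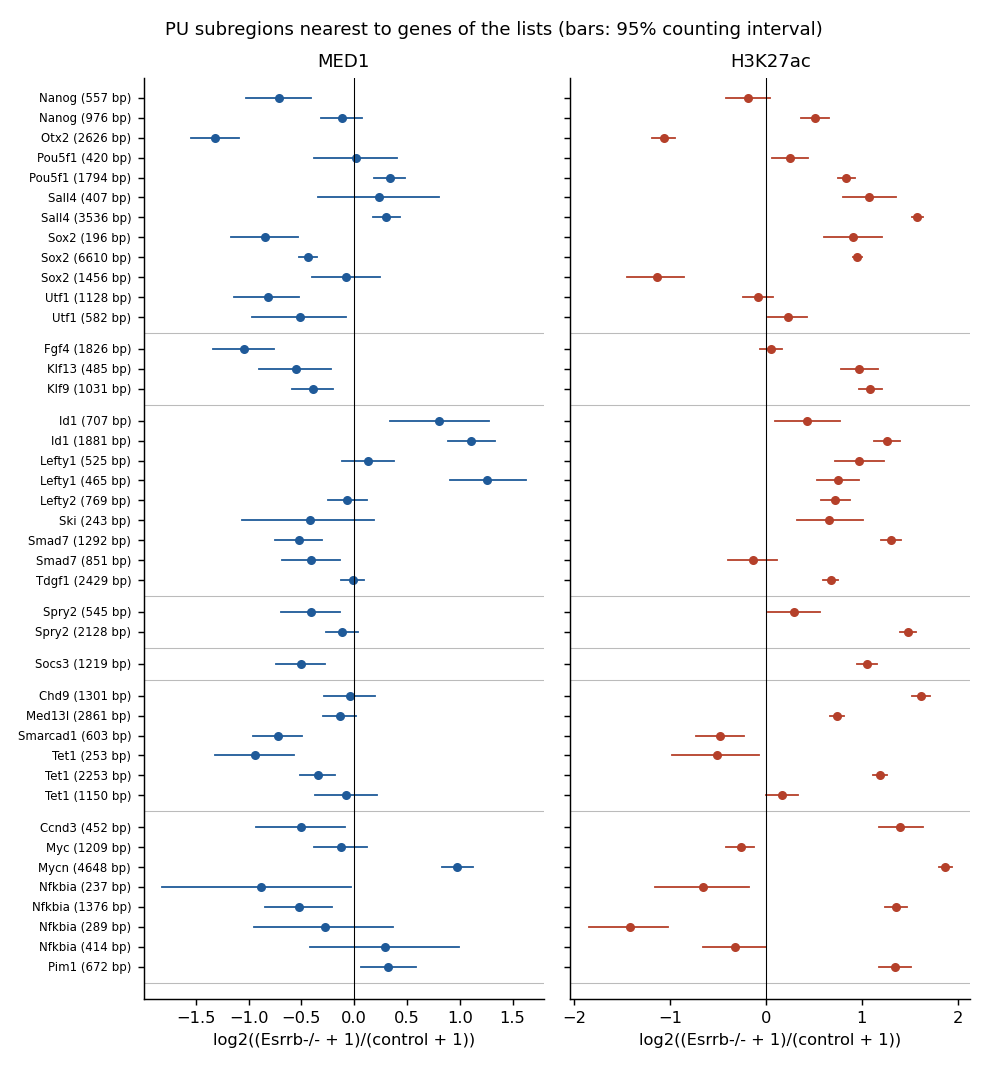
Log2 fold change, Esrrb-/- over control, of MED1 (left) and H3K27ac (right) at the 41 PU subregions nearest to genes of the lists, with exact 95% counting intervals as bars, lengths in bp beside the symbols and lines between the lists. *Otx2* is low for both marks (-1.32 and -1.06), *Mycn* and *Id1* are high for both, and subregions of 1 gene such as *Nfkbia* differ in H3K27ac from -1.42 to 1.35.

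Motif matches, searched as exact letters on both strands, were compared between PU and all subregions, and a match is a description and not a binding site. The ESRRB and NR5A2 letters AAGGTCA occurred in 52 of 183 PU subregions (28.4%, against 35.2% of all rows) and in the central 300 bp of 19 of the 168 PU subregions that long (11.3%, against 13.9%). The 6 matches outside exons in core pluripotency subregions and in the 5 at the top for MED1 change are given with 17 bases on each side where the subregion allows. Letters are those of the mm9 plus strand, and the match is in capitals, as AAGGTCA or as its reverse complement TGACCTT:
Epb4.9 chr14:71029137-71029177: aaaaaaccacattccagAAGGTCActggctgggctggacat
Sall4 chr2:168591180-168591220: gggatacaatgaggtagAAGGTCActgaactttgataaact
Sall4 chr2:168591130-168591170: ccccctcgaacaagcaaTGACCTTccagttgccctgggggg
Sox2 chr3:34656865-34656905: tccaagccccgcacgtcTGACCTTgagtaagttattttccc
Utf1 chr7:147131693-147131733: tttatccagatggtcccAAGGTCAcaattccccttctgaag
Utf1 chr7:147135648-147135688: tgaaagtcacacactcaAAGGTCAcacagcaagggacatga
For the 131 PU subregions without a match the MED1 median on the log2 scale was -0.02, for the 41 with 1 match -0.10 and for the 11 with 2 or more 0.10. MED1 was lower by at least 1.5 times at 19, 9 and 2 of them, against 16.4% of PU and 26.8% of all rows. The longest group by median length was the last, at 2120 bp against 870 bp for those without.

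The letters GGGCGGG, a KLF and SP motif, were in the central 300 bp of 19.6% of PU subregions against 10.5% of all rows, and the octamer ATGCAAAT bound by OCT4 in 6.55% against 3.39%. The SOX letters CCATTGT were in 8.33% against 5.42%, the ETS letters CCGGAAG in 2.38% against 2.37% and the E-box CACGTG in 4.17% against 4.92%. The cyclic AMP element TGACGTCA and the NRF1 letters GCGCATGC were each in 3 of 168 PU windows (1.79%, against 0.678%) and the YY1 letters AAGATGGCG in 0 of 168. Over whole subregions GGGCGGG was in 77 of 183, with a median H3K27ac log2 fold change of 0.96 against 0.38 for the others and a median MED1 log2 fold change of -0.09 against -0.02. Those 77 were also longer, at a median of 1297 bp against 574.5 bp. Among the longest PU subregions the H3K27ac medians with and without these letters were 1.21 and 0.62. They were 0.59 and 0.39 among those of middle length, and 0.74 and 0.31 among the shortest, where only 4 held the letters. The other 8 motifs are in subregions whose H3K27ac medians lay between 0.66 and 1.24, with no split by length given here. GC content was not separated from any of the motifs.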

How the data were processed

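MED1 and H3K27ac ChIP-seq and input DNA were measured in 12 samples. The authors deposited 4 tables of RPKM, 1 for each antibody and genotype, in which replicate libraries are pooled into 1 value per subregion. The submitters' processing notes name Trimmomatic, Bowtie2 and Picard and the build mm9, and how replicates were pooled and which read total scaled the values are not given in the sources used here. Starts lie on a CG dinucleotide in 100.0% of rows, so coordinates were read as 1-based with the end included. Taking the length as end minus start, 100.0% of the deposited values came out as whole reads to within 0.001. The smallest such whole numbers imply totals of 424897 and 230504 reads for MED1 and 1396982 and 1183707 for H3K27ac in control and Esrrb-/- cells, and intervals and read counts rest on them. These totals are far below sequencing libraries, and larger common multiples would narrow the intervals.

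Log2 fold changes were computed on RPKM with a pseudocount of 1. Exact (Clopper-Pearson) 95% intervals cover counting error only. Positions came from GENCODE vM1 on NCBIM37, which is mm9, and the sequences from the same genome. The tools were scipy 1.17.1 for intervals and correlations, pandas 2.3.3 with numpy 2.4.6 for tables, matplotlib 3.10.9 for plots and Python 3.11.15, and the read recovery and intervals were tested on simulated data. With 1 pooled value per condition no test was run and no replicate could be left out.

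The PU subregions, gene lists and motifs were chosen with earlier results of these data known. Named subregions are the 5 highest and 5 lowest log2 fold changes of each mark with at least 50 reads in each genotype, the 5 highest control levels, the 3 longest and 3 shortest, and those whose nearest start belongs to a listed gene. Alternatives were other pseudocounts, low-value and length filters, scaling, 1 value per block, and other promoter distances.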

Additional observations from a re-analysis of the deposited data

How the results depend on the processing

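Changes of scale, a filter on low levels and splits by GC content, length or distance to a start all changed some of the values. With reads set to the same sum over all rows, the median MED1 log2 fold change of PU subregions was 0.24 instead of -0.03, with 8.74% lower and 26.2% higher by at least 1.5 times, and that of H3K27ac was 0.19 instead of 0.66, with 15.3% lower and 27.9% higher. MED1 was then lower with H3K27ac higher at 18.03% of PU subregions. Centred on the median of all rows, the MED1 and H3K27ac medians were 0.11 and 0.42, with 19.7% and 41.5% higher by at least 1.5 times. Keeping subregions with a mean level at or above the 25th percentile of all rows gave an H3K27ac median of 0.83, with 65.7% higher and 0.699% lower, and a difference between longest and shortest of 0.26 instead of 0.65. The difference in MED1 between subregions near and far from starts (-0.05) was 0.78 among the shortest, -0.29 among the middle and -0.26 among the longest, and that in H3K27ac (0.49) was -0.16 among the middle ones. The H3K27ac difference between high and low CpG density (0.77) was 0.51 away from starts. The cause of these changes was not tested.

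GC content was taken up after the data were seen. The H3K27ac median was 0.24 in the lowest and 1.20 in the highest GC class of PU subregions, and the MED1 difference between longest and shortest (-0.05) was -0.43 in the highest. The PU minus DM median of H3K27ac (0.54) was 0.11, 0.25, 0.27 and 0.15 in the 4 lower of 5 GC classes, and that of MED1 (0.14) was 0.42 in the middle and -0.14 in the highest class.

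The other 102 alternative values of these results stayed within a tolerance, the 95% interval of the median over subregions (from order statistics) or the exact interval of a share, which describes spread among subregions and not between replicates. This tolerance is wide: 19 of the 102 still changed sign or differed by over 1.5 times, most of them small MED1 values. The sign changed at 2, the MED1 difference near against far from starts, which was 0.13 by means, and that of longest against shortest, 0.0019 under the filter on low levels. The H3K27ac difference near against far was 0.21 in the highest GC class and 0.32 among the shortest, and that by length was 0.41 in the highest GC class and 0.39 when split at 500 bp. For named subregions, 264 values under pseudocounts of 0.1 and 10 stayed within their counting intervals. No paired analysis was possible because the deposited columns are pooled and carry no replicate number, and leaving out a replicate was not possible for the same reason. Reads set the precision: at the median of 132 MED1 reads in Esrrb-/- cells, small changes were not detectable.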

Other observations

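Some PU clusters held values that belong to no comparison above, and they were picked after their values were seen. At *Nr5a2*, a nuclear receptor gene expressed in ESCs, 3 short intronic PU subregions (chr1:138842142-138842351, chr1:138842699-138843158 and chr1:138843697-138844487) had MED1 levels of 214, 149 and 197 RPKM in control and 457, 378 and 269 RPKM in Esrrb-/- cells. These rested on 19, 29 and 66 reads in control and 22, 40 and 49 in Esrrb-/- cells. Their control MED1 ranked 174, 183 and 178 of 183, and low control levels went with higher MED1 changes across PU subregions. The counting intervals of their MED1 log2 fold changes were 0.14 to 2.06, 0.62 to 2.09 and -0.11 to 1.01, the last of which held 0. The 6171 bp subregion over a start of the same gene (chr1:138844752-138850922) had 491 and 383 RPKM. The order of the 4 by MED1 was thus 491, 214, 197 and 149 RPKM in control and 457, 383, 378 and 269 RPKM in Esrrb-/- cells, with few reads behind all but the longest. H3K27ac log2 fold changes at the 4 were -0.87, 0.33, 0.13 and 0.44, with counting intervals that held 0 at 0.33 and 0.13.

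At *Trim71*, which encodes an RNA-binding ubiquitin ligase of pluripotent cells, the 4512 bp subregion over the start (chr9:114469830-114474341) had H3K27ac at 708 RPKM in control and 1818 RPKM in Esrrb-/- cells, whereas the intronic subregion at chr9:114465420-114466640 had 488 and 434 RPKM. Their GC contents were 60.3% and 48.3%. At *Setd1b*, a histone H3 lysine 4 methyltransferase, a 5273 bp subregion 1714 bp from the start (chr5:123585216-123590488) had MED1 at 1369 and 1511 RPKM and H3K27ac at 811 and 2173 RPKM.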
